A study of Homo sapiens with 39 samples.

Results

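CAMK2N1 and CAMK2N2 encode the endogenous inhibitor proteins of calcium/calmodulin-dependent protein kinase II (CaMKII), and CAMK2A, CAMK2B, CAMK2D and CAMK2G encode the alpha, beta, delta and gamma kinase subunits. These 6 genes, of 45435 in the expression tables, are described here across 13 groups made from HCT116, an established line of human colorectal carcinoma. CAMK2N1 was chosen by its measured levels, because it had been found higher than in parental cells in 11 of 12 lines, and the other 5 genes were added by family name. The CAMK2N1 differences from parental cells are therefore given as a description without a test. Tests are given for the other members and for differences between lines, in which the parental libraries take no part. The line libraries did take part in the choice of CAMK2N1, so its tests between lines are not free of that choice.

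The parental group was the HCT116 Flp-In T-REx host line without an HNF4A construct. A further 12 groups were stable lines, 1 per group, each with a single doxycycline-inducible insertion of 1 human isoform of hepatocyte nuclear factor 4 alpha (HNF4A, a nuclear receptor that acts as a transcription factor in gut and liver epithelium), fused at its C-terminus to GFP. All cells, parental cells included, received 2.5 µg/ml doxycycline for 48 h without selection antibiotics. Until induction, blasticidin was combined with zeocin for parental cells and with hygromycin B for the lines. No group expressed GFP alone, and each isoform was represented by 1 line, so an effect of the isoform cannot be told apart from one of the fused GFP, the prior selection drugs or the making of that line. Each group had 3 poly(A)-enriched RNA-seq libraries, 39 in all. The labels do not say whether replicates came from separate cultures, and p-values measure the spread between these libraries, which may be technical. Levels are in TPM, a transcript abundance scaled for transcript length and library total.

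CaMKII is a holoenzyme assembled from subunits of the alpha, beta, gamma and delta genes. Calcium-loaded calmodulin releases the kinase domain from its own regulatory segment, and neighbouring subunits can then phosphorylate each other, which keeps the kinase active after calcium has fallen. The 2 CAMK2N proteins bind the activated kinase domain and block it. The alpha and beta genes are best known from neurons, whereas the gamma and delta genes are expressed in many tissues, epithelia included.

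By standard nomenclature, which the labels do not spell out, isoforms 1 to 6 come from the P1 promoter of HNF4A and isoforms 7 to 12 from the P2 promoter. Isoforms 4 to 6 carry an added exon near the N-terminus and isoforms 10 to 12 another P2 N-terminus. Isoforms 2, 5, 8 and 11 have a short insertion in the C-terminal domain, and isoforms 3, 6, 9 and 12 have a shortened C-terminus.

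The libraries had 27892 to 30553 genes above 0 TPM. Of the 6 epithelial markers examined, EPCAM, KRT8, KRT18, KRT19 and CDH1 lay between 20.6 and 2491 TPM in all libraries, while CDX1 had a median of 0. Of 14 markers of leukocytes, endothelium, fibroblasts, neurons and muscle, 11 had a median under 1 TPM. The others were PECAM1 (1.14 to 6.43 TPM), COL1A1 (7.76 to 14.9 TPM) and SYT1 (0.451 to 5.01 TPM). In these bulk samples, fewer cells of a type and less RNA per cell cannot be told apart.

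One library stood apart in both the induced gene and several members. HNF4A mRNA, which includes the construct, was at 31.9, 30.8 and 31.7 TPM in parental cells and at 407 to 1109 TPM in the lines. Replicate 1 of isoform 3 was the lowest of these, at 407 TPM, while replicates 2 and 3 had 833 and 772 TPM. Isoform 3 results of the members whose pass or direction changed without this library are given both ways.

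CAMK2N1 lies on chromosome 1 (20482391 to 20486220, minus strand, GRCh38). In parental cells it had 9.39, 8.86 and 9.43 TPM, a mean of 9.22 TPM ± 0.32 (SD, n = 3). All 36 libraries of the 12 lines were above these values. The lowest was replicate 1 of isoform 3, at 13.04 TPM, and the highest was replicate 3 of isoform 1, at 33.4 TPM.

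The highest levels were in the lines of isoforms 4, 2 and 1. Isoform 4 had 30.6, 31.9 and 31.4 TPM, isoform 2 had 28.5, 32.5 and 32.5 TPM, and isoform 1 had 27.1, 29.5 and 33.4 TPM. These 3 lines overlapped one another throughout. Isoform 8 (29.2, 26.4 and 31.1 TPM) and isoform 10 (30.1, 27.3 and 27.4 TPM) overlapped with isoforms 1 and 2 as well. Isoform 12 (21.4, 27.3 and 29.3 TPM), isoform 7 (24.2, 26.1 and 23.0 TPM) and isoform 9 (19.5, 20.3 and 28.7 TPM) came next. In isoform 9, 1 library reached the levels of isoforms 8 and 10 while the other 2 lay near those of isoforms 5 and 11. Isoform 5 (21.1, 22.7 and 22.4 TPM) and isoform 11 (20.1, 22.3 and 22.3 TPM) had narrow, overlapping ranges. Isoform 3 (13.04, 24.5 and 24.0 TPM) was split by its replicate 1, and isoform 6 (18.3, 18.3 and 15.7 TPM) was lowest among the lines apart from that library. In the order of the means (isoforms 4, 2, 1, 8, 10, 12, 7, 9, 5, 11, 3 and 6, then parental cells), each line overlapped in range with the next, and isoform 6 did not overlap with parental cells.

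**Figure D1:**
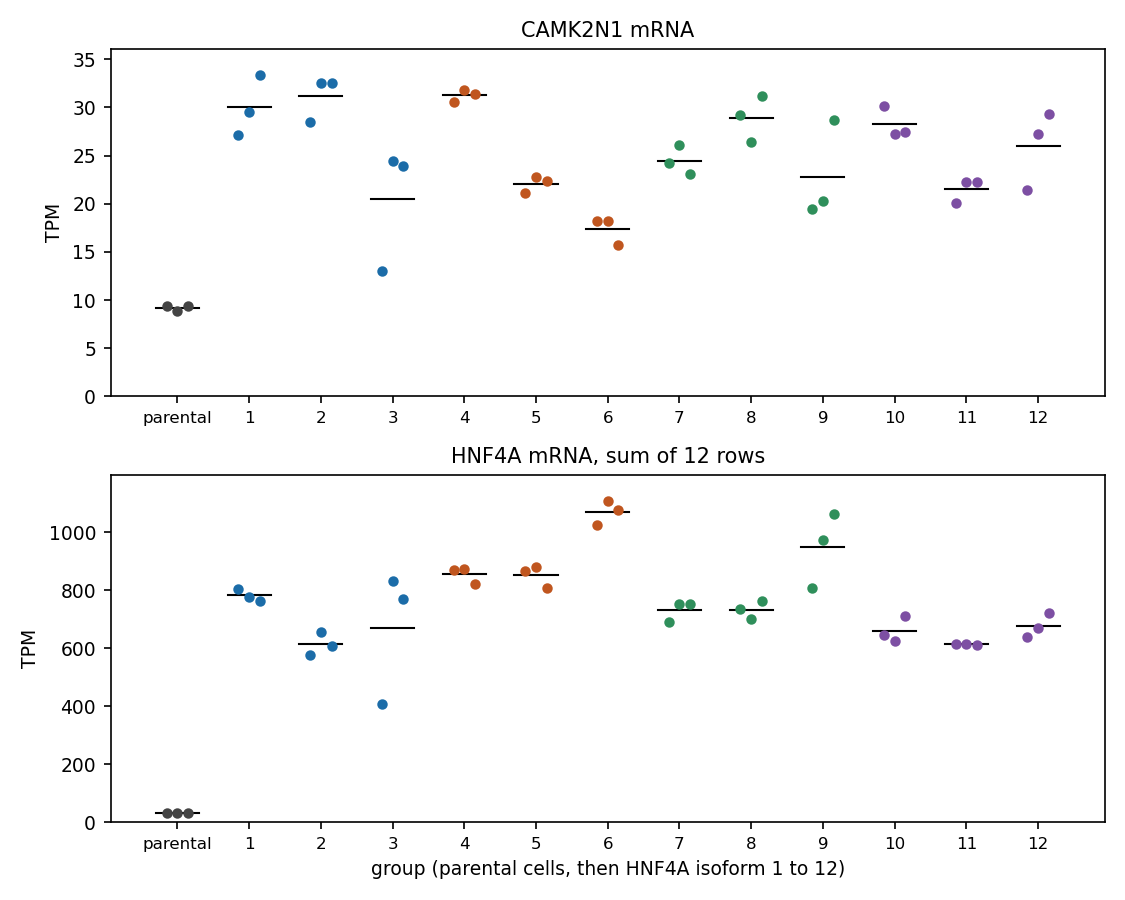
CAMK2N1 (top) and HNF4A (bottom) mRNA in TPM for each of the 39 libraries, by group; points are libraries and horizontal bars are means of 3. All line libraries lie above the parental ones for both genes, CAMK2N1 at 13.04 to 33.4 TPM against 8.86 to 9.43 TPM, and replicate 1 of isoform 3 is the lowest line library for both.

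On the log2(TPM + 1) scale the difference in CAMK2N1 from parental cells was, for isoforms 1 to 6 in that order, 1.60, 1.65, 1.02, 1.66, 1.18 and 0.84. For isoforms 7 to 12 it was 1.31, 1.55, 1.20, 1.52, 1.14 and 1.39, and the SE was 0.15 throughout. The choice of the gene used a log2 difference of at least 1, and isoform 3 (1.02) lay just inside this limit and isoform 6 (0.84) just outside. Without replicate 1 the isoform 3 difference was 1.30. In the authors' deposited table the CAMK2N1 log2 fold change ran from 0.80 to 1.86.

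A gene is said here to have passed the test at a limma Benjamini-Hochberg adjusted p under 0.05 over the 15003 genes tested in that comparison, and to be called when its absolute log2 difference was also at least 1. Among all genes tested, the share called against parental cells for isoforms 1 to 6, in that order, was 4.52%, 3.73%, 0.807%, 0.54%, 0.293% and 0.247%. For isoforms 7 to 12 it was 2.08%, 1.41%, 0.827%, 1.44%, 1.7% and 0.573%. Since CAMK2N1 was selected on this contrast, nothing is read from its own place against these shares.

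Over the means of the lines, the level of CAMK2N1 did not follow that of HNF4A. Each line carried a different isoform, so this does not compare amounts of 1 isoform. The relation between libraries of the same line was not tested. Isoform 6 had the highest HNF4A (1027, 1109 and 1078 TPM) and the lowest mean CAMK2N1, whereas isoform 2 had low HNF4A (577, 655 and 609 TPM) and nearly the highest CAMK2N1. Pearson's r between the 2 genes was 0.77 over the 13 group means of log2(TPM + 1), where the parental group lies far from the lines, and -0.35 over the 12 lines.

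CAMK2N1 was also compared between lines that differ by 1 named change in the isoform, in 17 pairs. The values of these lines were used in choosing the gene, isoform 6 being the line outside the limit, so the tests are not independent of the choice. CAMK2N1 passed the test in 4 of the pairs (23.5%), a share near the 25.3% of all genes over the same 17 pairs. In 3 of the 4 passes (isoforms 5 and 6 against 4, and 3 against 1) the lines differ in the C-terminus. In the other (isoform 5 against 2) they differ in the added exon. With the added exon shared, isoform 6 was below isoform 4 by a log2 difference of -0.81 ± 0.15 (SE, limma adjusted p = 0.000224), where 11.8% of all genes passed. Their libraries did not overlap, at 15.7 to 18.3 TPM against 30.6 to 31.9 TPM. Isoform 5 was below isoform 4 by -0.48 (adjusted p = 0.0306, 10.1% of genes passing) and below isoform 2 by -0.48 (adjusted p = 0.00677, 53.9% passing). The libraries of isoform 5, at 21.1 to 22.7 TPM, overlapped with neither. Leaving out any 1 of the 6 libraries of isoforms 4 and 5 raised the adjusted p of the first of these to between 0.0589 and 0.105, and it was 0.0647 when genes of any level were kept.

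Isoform 3 was below isoform 1 by -0.58 (limma adjusted p = 0.00197, 41.1% passing), but by -0.29 without replicate 1 of isoform 3 (adjusted p = 0.0538). The same library bore on isoform 6 against isoform 3, which was -0.18 with it (adjusted p = 0.448) and -0.46 without it (adjusted p = 0.00431). The shortened C-terminus came with no passing difference in the P2 lines, at -0.11 for isoform 9 against 7 (95% interval -0.41 to 0.18) and -0.13 for isoform 12 against 10 (-0.43 to 0.17). The insertion gave 0.06 for isoform 2 against 1 (-0.24 to 0.36), 0.23 for isoform 8 against 7 (-0.07 to 0.53) and -0.38 for isoform 11 against 10 (-0.68 to -0.08, adjusted p = 0.0873).

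Isoforms 4 and 1 had like levels of CAMK2N1 in lines that otherwise differed widely. Their difference was 0.06 (95% interval -0.24 to 0.36, limma adjusted p = 0.744), in a comparison where 55.1% of all genes passed. The remaining N-terminal pairs of CAMK2N1 did not pass either, at -0.28 for isoform 7 against 1, -0.11 for 8 against 2, 0.18 for 9 against 3, 0.20 for 10 against 7, -0.41 for 11 against 8 (adjusted p = 0.0665) and 0.19 for 12 against 9, each with an SE of 0.15. The value for isoform 9 against 3 changed sign without replicate 1 of isoform 3, to -0.10 (adjusted p = 0.593, and 0.424 with all libraries).

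CAMK2N2, the other inhibitor gene, lies on chromosome 3 (184259213 to 184261463, minus strand). It had 12.5, 13.7 and 13.4 TPM in parental cells, above CAMK2N1 there. In isoform 1 it had 7.03, 8.06 and 8.63 TPM and in isoform 2 8.95, 8.56 and 7.61 TPM. All 6 of these libraries were below all parental ones. CAMK2N2 fell by 0.68 ± 0.09 (SE) on the log2 scale in isoform 1 (limma adjusted p = 2.73e-07) and by 0.60 ± 0.09 in isoform 2 (adjusted p = 2.40e-06), the lines among those where CAMK2N1 was highest.

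CAMK2N2 also fell in isoform 7 (9.94, 10.2 and 9.34 TPM, log2 difference -0.39), isoform 11 (10.1, 9.52 and 9.93 TPM, -0.39) and isoform 10 (11.5, 10.2 and 9.78 TPM, -0.31), with limma adjusted p of 0.0011, 0.00123 and 0.00942. The isoform 10 difference had an adjusted p of 0.0528 without replicate 3 of that line. In the lines of isoforms 4, 5 and 6 CAMK2N2 had 11.3 to 15.1 TPM and overlapped with parental cells. In isoform 3, replicate 1 had 14.2 TPM, above the parental libraries, and the others had 11.9 and 9.33 TPM. The isoform 3 difference was -0.17 with all libraries (adjusted p = 0.193) and -0.30 without replicate 1 (adjusted p = 0.0112).

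With one inhibitor gene higher and the other lower, the make-up of inhibitor mRNA differed between groups. CAMK2N1 made up 41.1% ± 1.8 (SD, n = 3) of the summed TPM of the 2 inhibitor genes in parental cells, 79.1% ± 0.519 in isoform 1 and 78.8% ± 2.48 in isoform 2. In isoform 6 it made up 55.8% ± 1.45. CAMK2N1 is part of this share, so the share is a description and has no test.

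Among the kinase genes CAMK2G had the highest level per length, and CAMK2A was at the limit of detection. CAMK2G had 33.5 to 60.2 TPM over the 39 libraries, CAMK2D 12.8 to 22.8 TPM, CAMK2B 0.903 to 2.99 TPM and CAMK2A 0 to 0.0538 TPM. CAMK2A (chromosome 5, 150219491 to 150290291, minus strand) was listed at 0 in 8 libraries, had an authors' mean normalised count of 1.2 to 3.3 and did not reach the mean of 1 TPM needed for testing. The other 5 members were tested, and all of them exceeded that minimum in the parental cells as well.

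CAMK2G (chromosome 10, 73812501 to 73874591, minus strand) had 35.9, 36.3 and 34.7 TPM in parental cells. It had 60.2, 56.0 and 58.1 TPM in isoform 1 and 55.3, 57.8 and 57.0 TPM in isoform 2. These lines lay apart from all other groups, whose highest library had 44.8 TPM. CAMK2G rose by a log2 difference of 0.69 ± 0.04 (SE, limma adjusted p = 3.01e-15) in isoform 1 and of 0.66 ± 0.04 (adjusted p = 1.26e-14) in isoform 2.

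Smaller rises of CAMK2G were found in isoform 3 (39.9, 44.4 and 44.8 TPM, 0.26 ± 0.04, limma adjusted p = 8.53e-06) and isoform 10 (41.7, 40.9 and 41.3 TPM, 0.21 ± 0.04, adjusted p = 0.000107). Those in isoform 7 (39.3, 37.3 and 39.6 TPM, 0.12) and isoform 11 (40.9, 37.9 and 37.3 TPM, 0.11) had adjusted p of 0.0181 and 0.0216. They did not pass without replicate 3 of the parental cells, at 0.0897 and 0.101, nor, for isoform 11, without its replicate 1, at 0.163. Isoform 7 also lost its pass without its own replicate 1 (0.0646) or 3 (0.0728). With only the 6 libraries concerned, neither passed (0.0633 and 0.0958). In isoforms 4, 5, 6, 8, 9 and 12 the CAMK2G differences lay between -0.06 and 0.02. All 3 libraries of isoform 6 (34.1, 34.0 and 34.5 TPM) were below the parental ones, a difference of -0.06 that did not pass (adjusted p = 0.423).

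CAMK2D (chromosome 4, 113451032 to 113761927, minus strand) had 16.2, 17.8 and 19.3 TPM in parental cells. It had 12.8, 14.3 and 13.7 TPM in isoform 1 and 14.1, 14.2 and 13.6 TPM in isoform 2, without overlap. The falls were 0.36 ± 0.08 (SE, limma adjusted p = 0.000555) and 0.32 ± 0.08 (adjusted p = 0.0019) on the log2 scale. Isoform 7 had 15.1, 14.6 and 16.2 TPM, a difference of -0.20 with an adjusted p of 0.0576, which became 0.0266 without replicate 1 of the parental cells and 0.0449 without replicate 3 of isoform 7. The other 9 lines lay between -0.14 and 0.10.

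CAMK2B (chromosome 7, 44217150 to 44334577, minus strand) was low but measurable, with 2.24, 1.90 and 2.14 TPM in parental cells and authors' mean normalised counts of 223 to 355. It was the member with opposite differences in different lines. In isoform 1 it had 1.11, 1.06 and 0.903 TPM and in isoform 2 1.14, 1.23 and 0.980 TPM, falls of 0.61 ± 0.08 (limma adjusted p = 4.62e-08) and 0.55 ± 0.08 (adjusted p = 4.13e-07). In isoform 4 it had 2.97, 2.99 and 2.79 TPM, above every other library, a rise of 0.34 ± 0.08 (adjusted p = 0.00185).

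CAMK2B fell as well in isoform 8 (1.48, 1.33 and 1.33 TPM, log2 difference -0.38, limma adjusted p = 0.000244), isoform 10 (1.44, 1.498 and 1.79 TPM, -0.26, adjusted p = 0.00652) and isoform 7 (1.64, 1.70 and 1.53 TPM, -0.24, adjusted p = 0.0128). The last did not pass without replicate 1 of the parental cells (adjusted p = 0.0629), after median-of-ratios scaling (0.0691) or with only the 6 libraries concerned (0.0878). In that 6-library fit the isoform 10 difference did not pass either (0.0676). In isoform 3, replicate 1 had 2.19 TPM and the others 1.66 and 1.57 TPM. The isoform 3 difference was -0.14 with all libraries (adjusted p = 0.164) and -0.24 without replicate 1 (adjusted p = 0.0165).

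**Figure D2:**
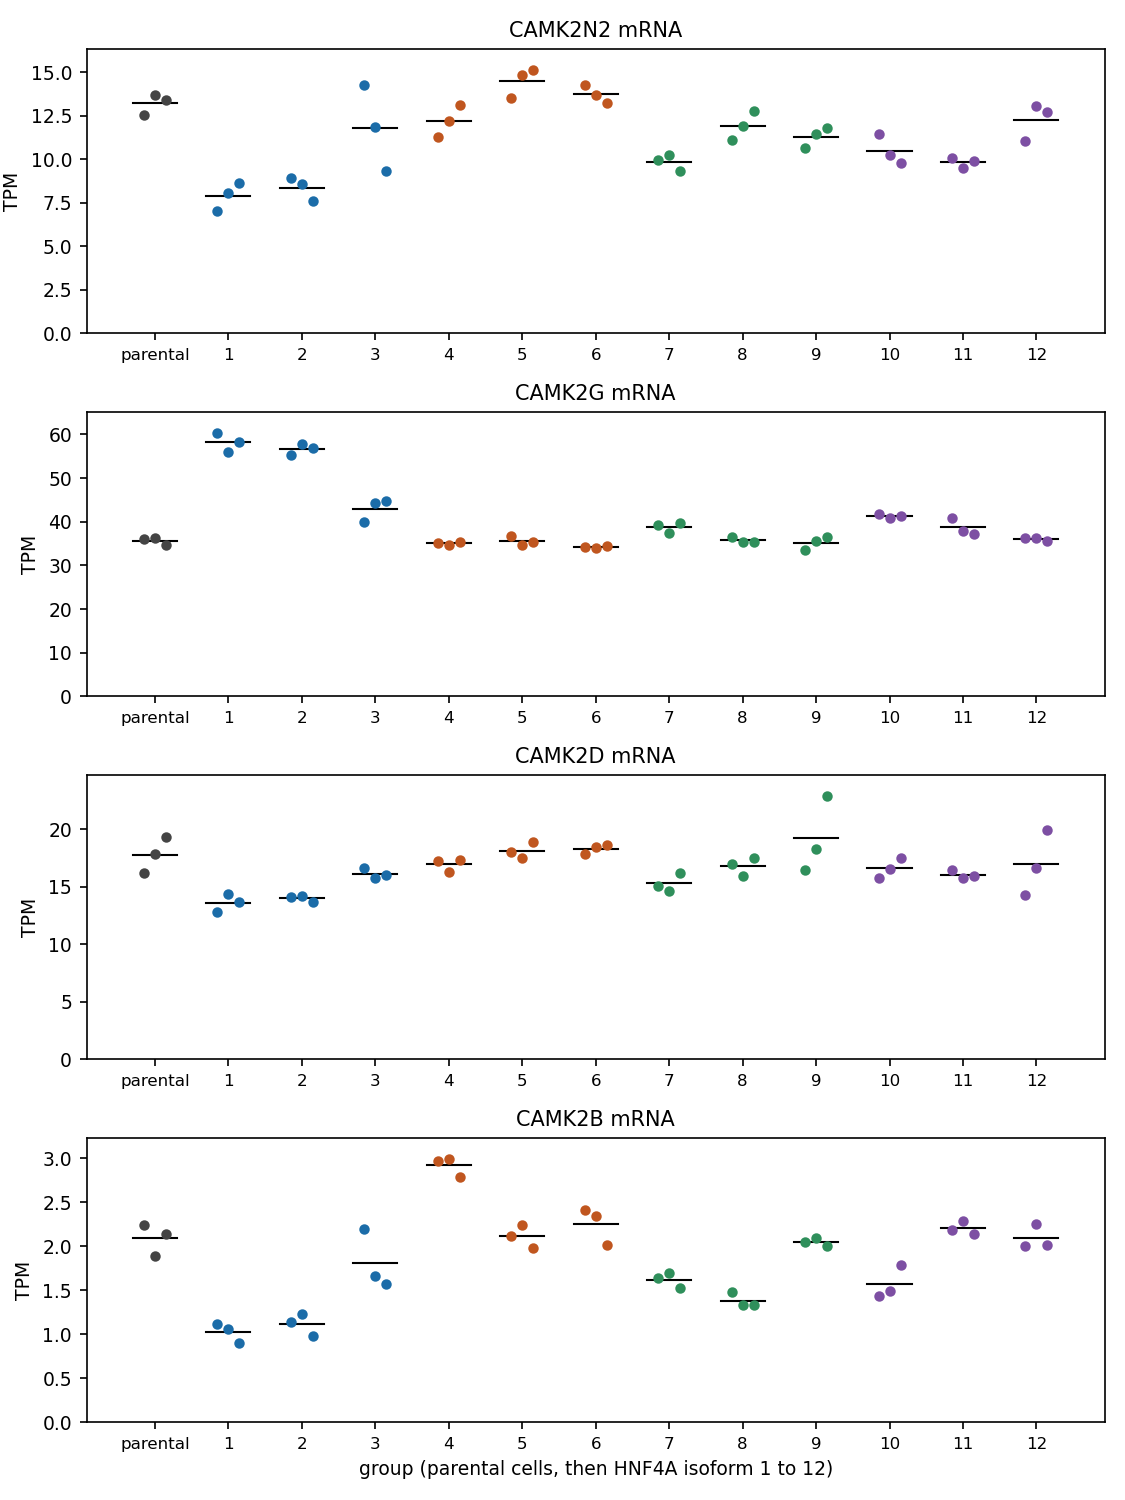
TPM of CAMK2N2, CAMK2G, CAMK2D and CAMK2B in each of the 39 libraries, by group, each panel starting at 0; points are libraries and horizontal bars are means of 3. Isoforms 1 and 2 have the highest CAMK2G, at 55.3 to 60.2 TPM, and the lowest means of CAMK2N2, CAMK2D and CAMK2B, and isoform 4 has the highest CAMK2B, at 2.79 to 2.99 TPM.

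Counted together, CAMK2N2, CAMK2B, CAMK2D and CAMK2G passed the test in 19 of 48 comparisons with parental cells (39.6%), against 30.7% of all genes over the same 12 comparisons. All 4 passed in isoforms 1 and 2, where 58.5% and 55.3% of all genes passed. Isoforms 3, 4 and 8 had 1 passing member each, beside 26%, 16.3% and 34.4% of all genes. Isoforms 7 and 10 had 3 each, beside 39.6% and 37.3%, and isoform 11 had 2, beside 38.5%. None passed in isoforms 5, 6, 9 and 12, where 14.8%, 10.1%, 22.7% and 14.6% of all genes did. At an unadjusted limma p under 0.05, CAMK2N2 in isoform 9 was the 1 further comparison in these 4 lines.

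None of the 48 comparisons was called, since no absolute difference of log2(TPM + 1) reached 1, and 21 had an unadjusted limma p under 0.05. The added 1 TPM shrinks differences of low genes such as CAMK2B, whose mean was 2.09 TPM in parental cells and 1.03 TPM in isoform 1. In the authors' deposited table, CAMK2G passes an adjusted p under 0.05 as higher in 6 lines, CAMK2N2 as lower in 5, CAMK2D as lower in 2, and CAMK2B as higher in 1 and lower in 4. The largest of those fold changes on the log2 scale is 0.85, for CAMK2G, and the lowest is -0.84, for CAMK2B. The median difference over the 48 comparisons was -0.07, beside medians of all genes from -0.11 to 0.01 in the 12 lines. Median-of-ratios scaling moved the median of all genes from -0.11 to 0.02 in isoform 1 and from -0.09 to 0.02 in isoform 2, and all 4 members passed in the same direction in both lines with it.

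**Figure D3:**
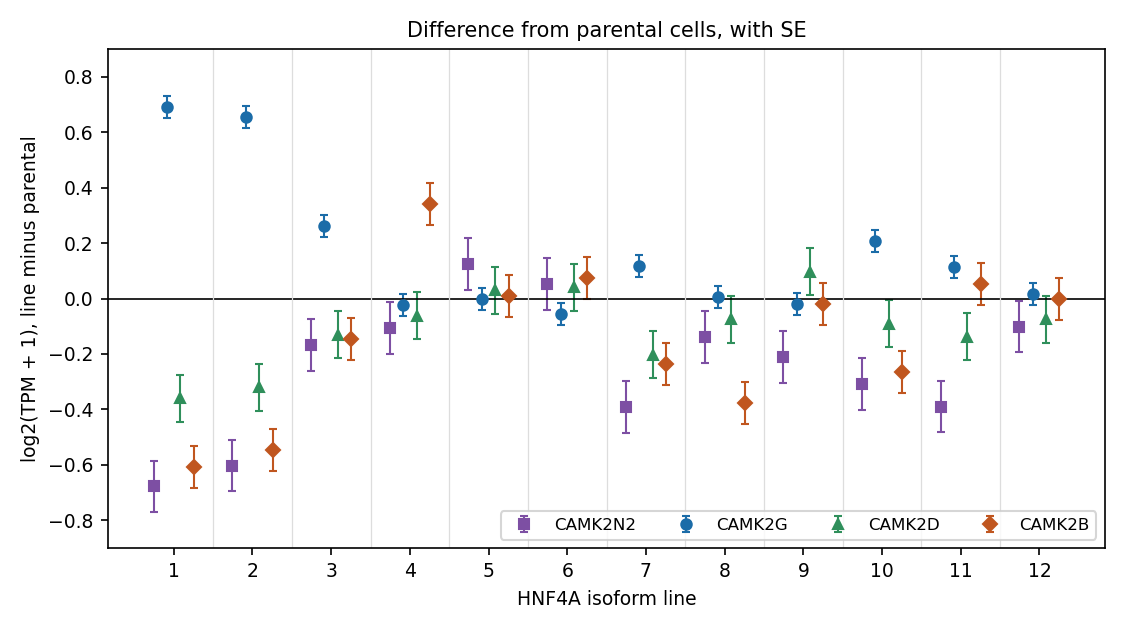
Differences from parental cells on the log2(TPM + 1) scale for CAMK2N2, CAMK2G, CAMK2D and CAMK2B in the 12 lines; bars are SE from the limma fit and all points share the 3 parental libraries. CAMK2G stands at 0.69 and 0.66 in isoforms 1 and 2 while the other genes are below 0 there, and the isoform 4 point of CAMK2B is at 0.34.

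The ratio of inhibitor to kinase mRNA, CAMK2N1 and CAMK2N2 summed over the 4 kinase genes summed, was 0.404 ± 0.00235 (SD, n = 3) in parental cells. It was highest in isoform 4, at 0.757, 0.815 and 0.804, and in isoform 8, at 0.733, 0.727 and 0.811. Isoforms 1 and 2, with similar CAMK2N1, had 0.521 ± 0.0587 and 0.551 ± 0.0169. Their summed kinase mRNA was higher, at 72.8 TPM ± 1.4 and 71.8 TPM ± 1.36, against 54.9 TPM ± 0.776 in isoform 4 and 55.5 TPM ± 0.962 in parental cells. CAMK2G made up 64.2% ± 2.21 of that sum in parental cells, 79.9% ± 1.38 in isoform 1, 78.9% ± 0.597 in isoform 2 and 63.8% ± 0.464 in isoform 4. These ratios are of mRNA and hold CAMK2N1, and they are given without a test.

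**Figure D4:**
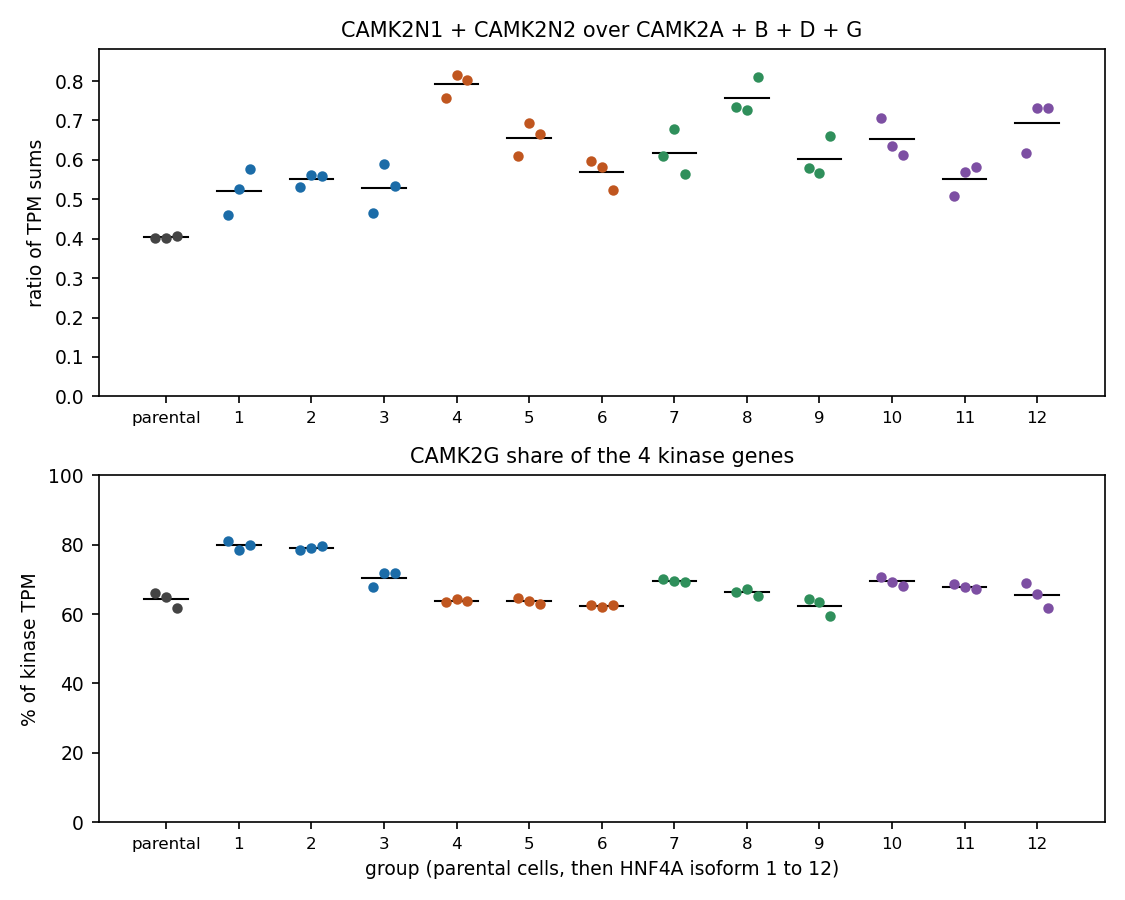
Ratio of the summed TPM of CAMK2N1 and CAMK2N2 to that of the 4 kinase genes (top) and CAMK2G as a percentage of kinase TPM (bottom) in each library, by group; horizontal bars are means of 3. Every line library is above the parental ratios of 0.403 to 0.407, isoforms 4 and 8 are highest, and isoforms 1 and 2 have the highest CAMK2G percentage.

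Between paired lines, the kinase genes differed most along the N-terminus of the P1 isoforms. From isoform 1 to isoform 4, which adds the exon, the CAMK2G difference was -0.71 ± 0.04 (SE, limma adjusted p = 1.34e-15), while CAMK2B (0.95 ± 0.08, adjusted p = 5.59e-12), CAMK2N2 (0.57 ± 0.09, adjusted p = 4.95e-06) and CAMK2D (0.30 ± 0.08, adjusted p = 0.00354) were higher. From isoform 2 to isoform 5 the same 4 genes passed in the same directions, at -0.66 for CAMK2G, 0.56 for CAMK2B, 0.73 for CAMK2N2 and 0.35 for CAMK2D. Of all genes, 55.1% passed in isoform 4 against 1 and 53.9% in 5 against 2, the largest shares of the 17 pairs. From isoform 3 to isoform 6 CAMK2G (-0.32) and CAMK2B (0.22) passed in these directions, where 21.6% of all genes passed. CAMK2N2 was 0.22 with all libraries (adjusted p = 0.0946) and 0.35 without replicate 1 of isoform 3, where it passed (adjusted p = 0.0038). The CAMK2B difference was 0.32 without that replicate. It did not pass with median-of-ratios scaling (adjusted p = 0.0674), with genes of any level (0.0683) or without either replicate 2 or 3 of isoform 3, or replicate 1 or 2 of isoform 6 (0.116 to 0.197).

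CAMK2G was likewise lower in the P2 lines than in their P1 counterparts. The difference was -0.57 for isoform 7 against 1 (limma adjusted p = 1.31e-12), -0.65 for 8 against 2 (adjusted p = 6.25e-14) and -0.28 for 9 against 3 (adjusted p = 3.94e-06), with 40%, 44.2% and 18.7% of all genes passing. CAMK2N2 was higher by 0.29 and 0.46 in the first and second of these pairs, CAMK2B by 0.37 in the first and CAMK2D by 0.25 in the second. CAMK2N2 in isoform 7 against 1 did not pass without replicate 1 of isoform 1 (adjusted p = 0.106) or replicate 2 of isoform 7 (0.0554). CAMK2D in 8 against 2 did not pass without replicate 3 of isoform 2 (0.0582), replicate 1 (0.0504) or replicate 3 (0.0706) of isoform 8, or with median-of-ratios scaling (0.0532). CAMK2B in 8 against 2 passed only without replicate 2 of isoform 2 (0.21, adjusted p = 0.0496) and with a pseudocount of 0.1 TPM (0.29, adjusted p = 0.0443).

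In isoform 9 against 3 whether CAMK2B and CAMK2D passed depended on single libraries. CAMK2B was 0.12 with all libraries (limma adjusted p = 0.265) and passed at 0.22 without replicate 1 of isoform 3 (adjusted p = 0.0387). CAMK2D was 0.23 (adjusted p = 0.0603) and passed without replicate 1 of isoform 9 (0.33, adjusted p = 0.00804) or with median-of-ratios scaling (0.20, adjusted p = 0.0448). CAMK2N2 changed sign, from -0.04 with all libraries to 0.09 without replicate 1 of isoform 3, and passed in neither.

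The shortened C-terminus came with lower CAMK2G in 3 of 4 pairs. The differences were -0.43 for isoform 3 against 1 (limma adjusted p = 5.34e-10), -0.14 for 9 against 7 (adjusted p = 0.0171) and -0.19 for 12 against 10 (adjusted p = 0.000788). Of all genes, 41.1%, 15.4% and 17.8% passed in these pairs, in that order. For isoform 6 against 4 the CAMK2G difference was -0.03 (95% interval -0.11 to 0.05), where 11.8% of all genes passed. CAMK2G in isoform 9 against 7 did not pass without replicate 1 (0.0666) or 3 (0.0719) of isoform 7 or replicate 1 of isoform 9 (0.0762).

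CAMK2B was higher with the shortened C-terminus in isoform 3 against 1 (0.47), 9 against 7 (0.22) and 12 against 10 (0.26) but lower in 6 against 4 (-0.27). Of these, CAMK2B in isoform 3 against 1 passed without each library in turn. The pass in 9 against 7 (adjusted p = 0.0492) was lost without any 1 of its 6 libraries (0.0639 to 0.14), with a pseudocount of 0.1 TPM (0.0578), with genes of any level (0.0942) and with median-of-ratios scaling (0.127). That in 12 against 10 (0.014) was lost without replicate 1 (0.0713) or 2 (0.0557) of isoform 10 or replicate 2 of isoform 12 (0.0802). That in 6 against 4 (0.0178) was lost without library 1 (0.0612) or 2 (0.0668) of isoform 4 or replicate 3 of isoform 6 (0.129). CAMK2N2 (0.51) and CAMK2D (0.23) also passed in isoform 3 against 1, where 41.1% of all genes did. CAMK2D (0.30) passed in 9 against 7 as well, where 15.4% of all genes did. CAMK2D in 3 against 1 did not pass without replicate 1 of isoform 3 (0.21, adjusted p = 0.0965) or its replicate 3 (0.0537), without replicate 1 (0.119) or 3 (0.0598) of isoform 1, with median-of-ratios scaling (0.0618) or with genes of any level (0.0678). CAMK2D in 9 against 7 did not pass without replicate 3 of isoform 9 (0.17, adjusted p = 0.211), nor without replicate 1 (0.05001) or 2 (0.0621) of isoform 7.

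Lines that differ by the insertion had 3 passes among the 5 members in 4 pairs, a share within the 10.1% to 17.5% of all genes that passed in these pairs. In isoform 2 against 1 and 8 against 7 none of the 5 passed, where 17.5% and 14.5% of all genes did. At an unadjusted limma p under 0.05 there were 0 and 2, and no other tool was run on pairs of lines. In isoform 11 against 10 CAMK2B passed (0.32, adjusted p = 0.00436, 13.4% of all genes), and in 5 against 4 CAMK2B passed (-0.33, adjusted p = 0.00353) beside CAMK2N1. CAMK2G in 8 against 7 passed with median-of-ratios scaling (-0.17, adjusted p = 0.00459) or without replicate 2 of isoform 7 (-0.14, adjusted p = 0.0361), and in 11 against 10 without replicate 1 of isoform 11 (-0.13, adjusted p = 0.0395).

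Among the P2 N-terminal forms, CAMK2B was higher in isoform 11 than in 8 (0.43 ± 0.08, limma adjusted p = 0.000379), where 12% of all genes passed. No member passed in isoform 10 against 7 (25.5% of all genes) or 12 against 9 (16.7%), with 1 and 0 members at an unadjusted p under 0.05. CAMK2D in 12 against 9 passed without replicate 1 of isoform 9 (-0.27, adjusted p = 0.0321) or replicate 3 of isoform 12 (-0.29, adjusted p = 0.0191), and CAMK2G in 11 against 8 with median-of-ratios scaling (0.16, adjusted p = 0.00886). Over all 17 pairs, the 5 tested members passed in 34 of 85 comparisons (40%), against 25.3% of all genes. Of these 85, 47 had an unadjusted p under 0.05 and none was called. The pairs share lines, so they are not independent of one another.

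**Figure D5:**
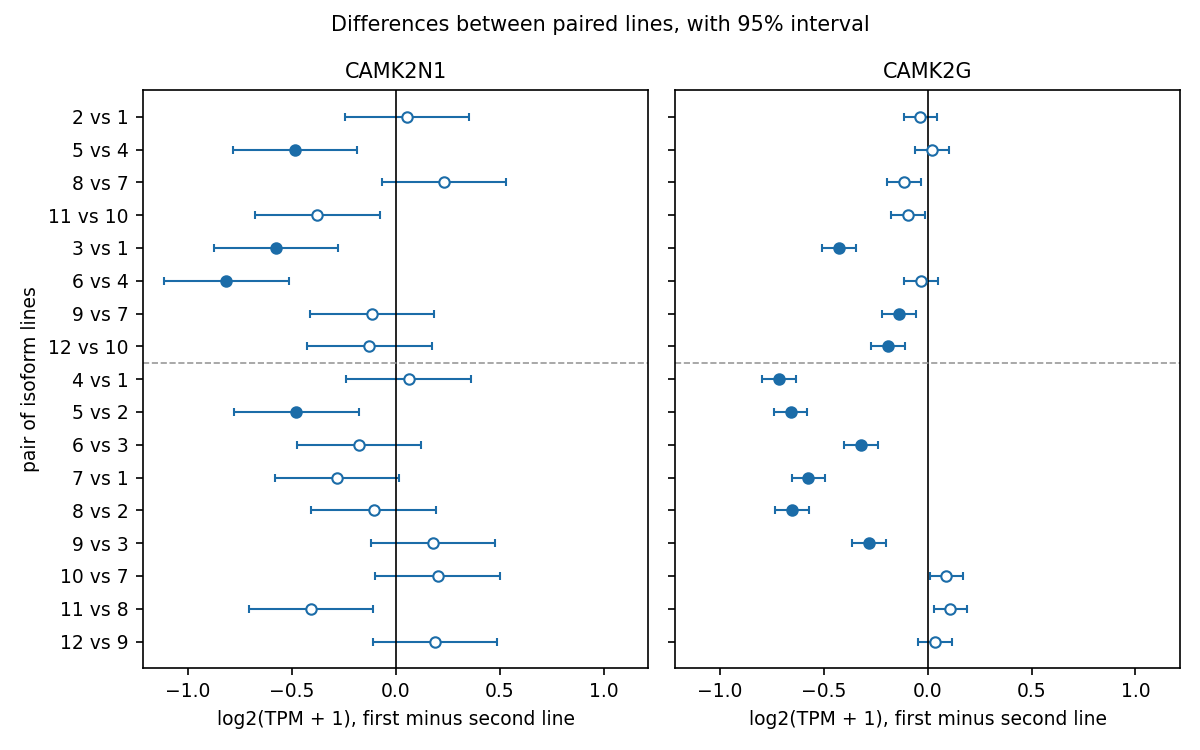
Differences of CAMK2N1 (left) and CAMK2G (right) between the 17 pairs of lines on the log2(TPM + 1) scale, first minus second line; bars are 95% intervals, filled points passed the test, and the dashed line separates C-terminal (above) from N-terminal (below) pairs. CAMK2N1 passed in 4 pairs (23.5%), all below 0, and CAMK2G in 9 (52.9%), all below 0, with isoform 4 against 1 at 0.06 for CAMK2N1 and -0.71 for CAMK2G. Over the same 17 pairs 25.3% of all genes passed.

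With each line as 1 unit, the 12 line means were fitted with additive terms for the 2 ends of the protein. Members passed for isoforms 4 to 6 against 1 to 3 and for 7 to 9 against 1 to 3. In the first contrast CAMK2G had a difference of -0.56 ± 0.08 (SE, limma adjusted p = 0.00179), while CAMK2N2 (0.51, adjusted p = 0.00773), CAMK2B (0.58, adjusted p = 0.0153) and CAMK2D (0.27, adjusted p = 0.0123) were higher, so 4 of 5 members passed beside 34.6% of all genes. In the second, the CAMK2G difference was -0.50 ± 0.08 (adjusted p = 0.00858), where 11.6% of all genes passed. CAMK2D in the second was 0.21 (adjusted p = 0.0626) and passed at 0.22 without replicate 1 of isoform 3 (adjusted p = 0.042). CAMK2B in the first contrast did not pass when genes of any level were kept (adjusted p = 0.0545).

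The class model gave no pass for CAMK2N1. It was -0.20 for isoforms 4 to 6 against 1 to 3 (95% interval -0.58 to 0.18), -0.07 for 7 to 9 against 1 to 3 (-0.45 to 0.31), and -0.34 for the shortened C-terminus against the other lines (-0.62 to -0.05, limma adjusted p = 0.215). No member passed for isoforms 10 to 12 against 7 to 9, for the insertion or for the shortened C-terminus, contrasts in which 0%, 0% and 0.0133% of all genes passed. The members at an unadjusted p under 0.05 numbered 0, 0 and 4 in these contrasts. Over the 25 class comparisons of members, 5 passed, 10 had an unadjusted p under 0.05 and none was called, and no other tool was run on them.

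Promoter sequence from RefSeq (GRCh38.p14) was at hand for 5 of the 6 members and not for CAMK2N1. The 250 bases before the RefSeq start are shown for CAMK2G, the member that rose in isoforms 1 and 2, and for CAMK2B, 1 of the 3 that fell there, which also rose in isoform 4. The CAMK2B stretch lies inside the gene span given above, which reaches 44334577 on the minus strand. Bases before that outer end were not searched. The CAMK2G stretch and the CAMK2D one used below lie in part inside the gene spans given above. Capitals mark GC boxes, searched as GGGCGG on both strands, and a box that overlaps an earlier one is left in lower case.
CAMK2G, chr10:73874556-73874805, minus strand: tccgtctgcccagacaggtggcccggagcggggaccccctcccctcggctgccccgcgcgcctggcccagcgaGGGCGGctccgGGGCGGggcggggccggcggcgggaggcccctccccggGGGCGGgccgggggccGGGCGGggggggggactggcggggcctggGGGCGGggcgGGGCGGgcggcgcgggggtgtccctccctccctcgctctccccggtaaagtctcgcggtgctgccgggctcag
CAMK2B, chr7:44325595-44325844, minus strand: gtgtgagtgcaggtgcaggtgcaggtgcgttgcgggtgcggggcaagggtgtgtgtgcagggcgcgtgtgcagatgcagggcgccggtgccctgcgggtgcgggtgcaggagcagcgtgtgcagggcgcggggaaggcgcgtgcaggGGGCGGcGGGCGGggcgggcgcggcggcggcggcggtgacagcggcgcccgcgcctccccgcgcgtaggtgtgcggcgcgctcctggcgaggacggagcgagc
The CAMK2G stretch had a GC content of 84.8% and 9 GC boxes, overlapping ones counted, of which 6 are in capitals. The CAMK2B stretch had 78.4% and 3 boxes, of which 2 are in capitals. The same stretches of CAMK2N2 and CAMK2D, which fell in isoforms 1 and 2 as well, had 74.4% with 3 boxes and 67.6% with 0 boxes. The median GC content of the 35116 promoters in the table was 58%, and 45.0% of all promoters, taken from 250 bases before to 50 after the start, held at least 1 GC box. The HNF4 motif CAAAGTCCA and its core CAAAGTC, which lies within it, were searched on both strands and found in none of the 5 member promoters and in 0.384% and 3.37% of all promoters. The shorter nuclear receptor element CAAAGG was found in that of CAMK2D and in 17.9% of all promoters. These matches describe letters in a window and were not tested against binding.

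Genes with a pattern like that of CAMK2N1 were listed by Pearson's r over the 13 group means of log2(TPM + 1). The highest were RAP1A (0.92, and 0.83 over the 12 lines), TRAPPC3 (0.90 and 0.77), ACE (0.88 and 0.83), MAP3K1 (0.88 and 0.79) and RSL24D1 (0.86 and 0.78). Of these, ACE, which encodes angiotensin-converting enzyme, had the widest range, from 2.56, 2.45 and 2.38 TPM in parental cells to 7.59, 8.14 and 5.68 TPM in isoform 1. RAP1A, a small GTPase, differed by 0.08 to 0.21. The lowest were PDLIM7 (-0.92 and -0.80), SPARC (-0.89 and -0.70) and CHKB (-0.88 and -0.72). Among the members, r over the 12 lines was 0.45 for CAMK2G, -0.42 for CAMK2B, -0.52 for CAMK2N2 and -0.54 for CAMK2D. The points of these correlations share libraries, and those over 13 groups share the distance of the parental group from the lines.

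Of the 5 protein-coding genes on each side of CAMK2N1 in the RefSeq order, 4 were expressed at a level that was tested, all on one side. MUL1, the nearest, had log2 differences from parental cells between -0.00 and 0.14. CDA, which encodes cytidine deaminase, had 5.71, 5.76 and 5.21 TPM in parental cells, 35.8, 37.0 and 38.7 TPM in isoform 1, and 7.29, 7.76 and 6.02 TPM in isoform 4. It was called higher in isoforms 1, 2, 3, 7 and 11, with a largest log2 difference of 2.54 ± 0.11 (SE, limma adjusted p = 7.32e-18) in isoform 1. In isoform 4, where CAMK2N1 was highest, the CDA difference was 0.29 (adjusted p = 0.0821). PINK1, a mitochondrial kinase gene, lay between -0.05 and 0.62 and DDOST between -0.26 and 0.00.

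A list of 57 other genes of calcium and calmodulin signalling had 40 members that were tested. In the 12 comparisons with parental cells they passed as higher 92 times and as lower 117 times of 480 (43.5%), beside 30.7% for all genes. Of the 40, 2 were called higher in at least 1 line, 5 were called lower and 33 were never called. The 13 calls were 5 each in isoforms 1 and 2 (12.5% of 40 each), and 1 each in isoforms 7, 10 and 11 (2.5% each), beside the shares of all genes called given above. The median log2 difference of the list was -0.21 in isoform 1 and -0.14 in isoform 2, where those of all genes were -0.11 and -0.09. In the authors' deposited tables, 20 values of the 57 genes pass an adjusted p under 0.05 and differ 2-fold or more.

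CALM2, a calmodulin gene, had 701, 742 and 701 TPM in parental cells and passed as lower in 2 lines, with a lowest difference of -0.32. CALM3, which also encodes calmodulin, passed as higher in 8 lines, up to 0.36. CALML4, a calmodulin-like light chain of the brush border, was called higher in isoform 1, where it had 28.2, 26.5 and 28.4 TPM against 8.50, 7.96 and 7.89 TPM in parental cells (1.65 ± 0.09, limma adjusted p = 2.68e-16), and in isoform 2 (1.35 ± 0.09). In isoform 4 it had 8.05, 7.34 and 7.43 TPM.

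Among the other calmodulin-dependent kinases, DAPK2, a death-associated kinase, had 4.70, 4.47 and 4.87 TPM in parental cells, 18.7, 18.1 and 17.4 TPM in isoform 1 and 19.4, 18.7 and 17.8 TPM in isoform 2. It was called higher in isoforms 1 (1.75), 2 (1.79), 10 (1.01) and 11 (1.00), each with an SE of 0.09. The last 2 lay just above the fold limit and fell below it without replicate 2 of the parental cells, at 0.98 each, without replicate 1 of isoform 10, at 0.97, and without replicate 2 of isoform 11, at 0.98. CAMK4, a nuclear calmodulin kinase, had 4.38, 4.52 and 4.63 TPM in parental cells and 1.44, 1.68 and 1.59 TPM in isoform 1, and was called lower in isoforms 1 (-1.10 ± 0.09) and 2 (-1.06 ± 0.09). The isoform 2 value was -0.97 after median-of-ratios scaling. CAMK1D was called lower in the same lines, at -1.15 and -1.14 (SE 0.10), from 6.27, 5.77 and 6.30 TPM to 2.40, 2.08 and 2.14 TPM in isoform 1.

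Of the proteins that sequester calmodulin, NRGN (neurogranin) was called lower in isoform 1, with 14.2, 15.7 and 11.4 TPM against 33.7, 35.6 and 33.8 TPM in parental cells (-1.27 ± 0.11, limma adjusted p = 1.60e-11). MARCKS, a membrane-bound substrate of protein kinase C, was called lower in isoform 7, with 24.0, 22.5 and 19.7 TPM against 69.0, 71.5 and 69.2 TPM (-1.62 ± 0.07, adjusted p = 3.34e-17). It passed as higher in 4 lines and had 101, 105 and 101 TPM in isoform 4. RCAN2, a regulator of the phosphatase calcineurin, was called lower in isoform 2 (-1.20 ± 0.11), with 1.36, 1.60 and 1.32 TPM against 4.72, 4.79 and 4.25 TPM.

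No call was made for the 16 tested genes of calcium release, entry and pumps, which had an unadjusted limma p under 0.05 in 87 of 192 comparisons. They passed as higher in 18 and lower in 51 (35.9% together), beside 30.7% of all genes over the same 12 lines. Their median log2 difference was -0.06, within the medians of all genes from -0.11 to 0.01 in these lines. The authors' deposited tables hold 3 values for the 20 listed genes of this role that pass and differ 2-fold or more. STIM2, an endoplasmic reticulum calcium sensor picked after its values were seen, passed as lower in all 12 lines. It had 22.1, 23.7 and 24.8 TPM in parental cells and 11.4 TPM in each library of isoform 2, and its log2 differences ran from -0.98 to -0.20 (SE 0.06, largest limma adjusted p = 0.0226). ORAI1, of the same role and picked in the same way, passed as higher in 8 lines and lower in 0, with differences from 0.04 to 0.81.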

How the data were processed

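RNA-seq was measured in 39 libraries, 3 for each of 13 groups, grouped by the labels. The authors deposited 1 table of 45446 rows per group with TPM per library, and for each of 12 lines they added columns, per the file headers, with a mean of normalised counts (a signal on a common scale), a log2 fold change against parental cells, its SE, a test statistic (a score) and both a raw and an adjusted p-value. The submitters' processing notes name Trimmomatic 0.36, FastQC 0.11.5, kallisto 0.44.0, DESeq2 1.22.2 and GRCh38.p12, with no role or order. The authors' TPM columns summed to 999972.6 to 999987.7, so read depth per library is unknown and no interval for counting error was computed; the authors' mean normalised counts summed to 50609338 to 56136330 over the genes of a table. No 2 libraries shared more than 0.0077% of identical values, and each library correlated at 0.9952 or more with another of its group.

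The 12 rows named for HNF4A isoforms were summed, which left 45435 rows. Gene positions are from GENCODE annotation of GRCh38. Values were tested as log2(TPM + 1) in R 4.3.3 by limma 3.58.1 (eBayes with trend) over the 15003 genes averaging 1 TPM or more, in 1 fit of all 39 libraries with 26 residual degrees of freedom; a fold change on this scale understates that of low genes. The 12 comparisons with parental cells share its 3 libraries. The class model used 12 line means with 6 residual degrees of freedom, and its classes come from standard nomenclature. The scripts were tested on simulated data. The isoform 4 and 5 libraries have no replicate number in the labels, and their libraries are given in column order.

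Named were the members, HNF4A, the 5 genes with the highest and 3 with the lowest correlation with CAMK2N1 over 13 group means, the 5 protein-coding neighbours on each side, and genes of the calcium and calmodulin list called in a line; genes named beside these were chosen after their values were seen. The members and lists were chosen with earlier results of these data known. Alternatives were a pseudocount of 0.1 TPM, a filter at 5 TPM or none, median-of-ratios scaling, no minimum fold change, a fit of 6 libraries, a replicate block and leaving out each library in turn. A protein sequence of the members and the CAMK2N1 promoter were not used here.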

Additional observations from a re-analysis of the deposited data

Results flagged for a closer look

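CAMK2B differed in opposite directions from parental cells in 2 lines that share all but an N-terminal exon. It was 0.34 ± 0.08 (SE) above parental cells in isoform 4, with 3 of 3 libraries higher, and 0.61 ± 0.08 below them in isoform 1, a log2 difference of -0.61 with 3 of 3 libraries lower. The difference between the lines, tested directly, was 0.95 (limma adjusted p = 5.59e-12), the largest of CAMK2B over the 17 pairs. It was under the 2-fold limit for a call here and over it, at 1.43, with a pseudocount of 0.1 TPM (adjusted p = 8.79e-12). Both differences rest on levels of 0.903 to 2.99 TPM. No cause was tested.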

How the results depend on the processing

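Under the rule of adjusted p under 0.05 and at least a 2-fold difference, the number of member calls was 0 against parental cells, between paired lines and between classes. It stayed 0 in each when any 1 library was left out. Without a minimum fold change the numbers were 19, 34 and 5, and with a pseudocount of 0.1 TPM the paired lines had 1, CAMK2B in isoform 4 against 1 (1.43). Leaving out 1 library at a time moved the passes at any fold from 19 to between 17 and 21, from 34 to between 31 and 43 and from 5 to between 5 and 6. Calls in the calcium and calmodulin list numbered 13, 209 without a minimum fold change, 18 with a pseudocount of 0.1 TPM and 11 to 15 with a library left out. With a filter of 5 TPM there were 8, since CAMK4, CAMK1D and RCAN2 were then not tested. No tested value of a member reversed with a pass, and 47 of 2449 changed sign with no pass in either setting. Beyond the members, only the calls against parental cells of this list and of the neighbours were checked, and none reversed.

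Replicate numbers were checked as a pairing. Same-numbered libraries of different groups had a mean correlation of their deviations of 0.0515 (range -0.175 to 0.232 over 165 pairs). For other numbers it was -0.0257, but deviations sum to 0 within a group, so this mean follows from the first and is no separate comparison. Of 33 numbered libraries, 29 correlated best with their own number, a hint from the data and not from the design. The labels do not say what a number shares. The number of calls with the replicate block, 0, carries no information, since the block left the differences as they were. Among the members' passes the block changed 3: CAMK2D in isoform 7 against parental cells passed (limma adjusted p from 0.0576 to 0.0373), as did CAMK2D in isoform 9 against 3 (0.0603 to 0.0379), and CAMK2B in isoform 9 against 7 did not (0.0492 to 0.0505).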
